A study of Mus musculus with 46 samples.

Results

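The genes described here are 51 genes spread over mouse chromosome 15, among them Myc, out of 19521 genes in the deposited count table. They were selected on measured values. In an earlier look at the same libraries, genes of this chromosome had higher read counts in transgenic thymocytes than in wild-type thymocytes, and the 51 were named from it. Their difference between the genotypes is therefore given as a description, without a test. The table holds 685 further genes of chromosome 15, which were not on the list, and 18643 genes of other chromosomes.

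RNA was sequenced from sorted T cells of mice of 2 genotypes, both on the C57BL/6 strain: wild type (WT) and hCD2-LMO2 knock-in, called transgenic (TG) below. The groups were DN1, DN3, total DN, DP, CD4SP and CD8SP thymocytes of both genotypes, and splenic CD4+ and CD8+ T cells of transgenic mice alone. Each group had 3 libraries, except wild-type DN1, which had 1. Anti-LMO2 chromatin immunoprecipitation gave 1 peak list each for transgenic DN3 and DP thymocytes, wild-type DN3 thymocytes (both DN3 samples sorted as CD25+ DN cells) and transgenic splenic CD4+ and CD8+ cells. The only input sample is labelled as transgenic thymocytes, so the series lists no input of wild-type or splenic cells. The age of the mice, and whether libraries of a group came from separate mice, are not given in the labels, so the spread between libraries may be technical.

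T cells develop in the thymus from double-negative (DN) precursors without CD4 or CD8, of which DN1 is the earliest subset and DN3 the stage of T-cell receptor beta chain selection. They pass through a double-positive (DP) stage and leave as CD4 or CD8 single-positive (SP) cells. LMO2 links DNA-binding factors into larger complexes in blood stem cells and early precursors, and it is normally switched off as T cells develop. MYC, encoded on chromosome 15, is a transcription factor that pairs with MAX and drives ribosome production, metabolism and cell growth. In the thymus it is high while precursors divide and low in resting DP cells.

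Libraries held 17211426 to 28842773 counted reads. Lmo2 had 0.3199, 0.245 and 0.239 CPM (counts scaled to a common library total) in wild-type DN3 cells and 26.1, 20.6 and 19.7 CPM in transgenic DN3 cells. The library labelled TG_DP replicate 3 had 0.40 CPM of Lmo2, inside the wild-type DP range, against 74.6 and 64.4 CPM in the other TG_DP libraries. The T-cell marker list (Cd3e, Cd3d, Cd3g, Thy1 and Lck) summed to 878 CPM in the library labelled TG_S_CD8 replicate 1 and to 4246 and 4342 CPM in the other splenic CD8+ libraries. The same library summed to 4337 CPM over 6 B-cell markers and 4268 CPM over 6 myeloid markers. Of the 40 count columns, 12 carry an N at the end of their name, a mark that the labels leave unexplained. The N columns are unevenly spread over the genotypes: 6 of the 15 transgenic thymic libraries outside DN1 and 2 of the 15 matching wild-type libraries.

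For every library the CPM of each gene was divided by the mean of the wild-type libraries of its stage. A wild-type library was divided by the mean of the other wild-type libraries. The median log2 ratio of genes on all other chromosomes was then subtracted. Genes with a mean below 5 CPM at a stage were left out, which removed 1 member (Ptk2) at DN3 and DN and none elsewhere. As a reading mark, a level 1.5 times the reference is 0.58 on this scale. Libraries of 1 stage share their wild-type reference, so their values are not independent of each other.

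The median of the members was above 0 in all 15 transgenic thymic libraries after DN1, but it was above every wild-type library in 12 of them. Leaving out 1 wild-type reference library turned 4 of 45 values below 0, to -0.01 and -0.0061 for TG_DP replicate 3 and to -0.02 and -0.04 for TG_CD8SP replicate 1. In transgenic DN3 libraries the member median was 0.2998, 0.37 and 0.32 for replicates 1, 2 and 3, and the chromosome 15 genes outside the list had medians of 0.21, 0.195 and 0.23. In total DN libraries the members had medians of 0.57, 0.404 and 0.46 and the genes outside the list 0.595, 0.46 and 0.58. CD4SP libraries gave 0.46, 0.43 and 0.396 for the members and 0.66, 0.42 and 0.59 for the other chromosome 15 genes. Those 9 libraries were all above the wild-type libraries, whose member medians ran from -0.09 to 0.20 and whose medians of genes outside the list ran from -0.06 to 0.07.

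DP and CD8SP libraries of the same genotype differed among themselves. The DP replicates had member medians of 0.08, 0.54 and 0.03 and medians of genes outside the list of 0.19, 0.66 and 0.05. The CD8SP replicates had 0.04, 0.596 and 0.36 and 0.02, 0.57 and 0.37. TG_DP replicate 2 and TG_CD8SP replicate 2 were as high as the DN and CD4SP libraries, and TG_CD8SP replicate 3 had a member median inside the DN3 range and a median of genes outside the list above it. TG_DP replicate 3 and TG_CD8SP replicate 1 lay inside the wild-type range, and TG_DP replicate 1 lay above it only for the genes outside the list. Lmo2 was at 40.8 CPM in TG_CD8SP replicate 1 and at 0.40 CPM, inside the wild-type DP range, in TG_DP replicate 3. Whether the chromosome 15 median moved with the Lmo2 level was not tested.

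In DN1, where both genotypes express Lmo2 (33.1 CPM in the wild-type library and 36.7, 39.6 and 47.1 CPM in the transgenic ones), the member medians were 0.01, 0.07 and -0.0016 against the single wild-type library. Across the 15 later transgenic thymic libraries, chromosome 15, members included, had the highest median of the 19 autosomes in 12. It was the highest in 1 of the 15 wild-type libraries. The chromosome itself was picked out in an earlier look at these libraries. Its rank, and the medians of its genes outside the list, are therefore a description too. Medians of the other autosomes in the 15 transgenic libraries ran from -0.26 to 0.35. The plot of chromosome medians by library shows these values side by side.

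**Figure D1:**
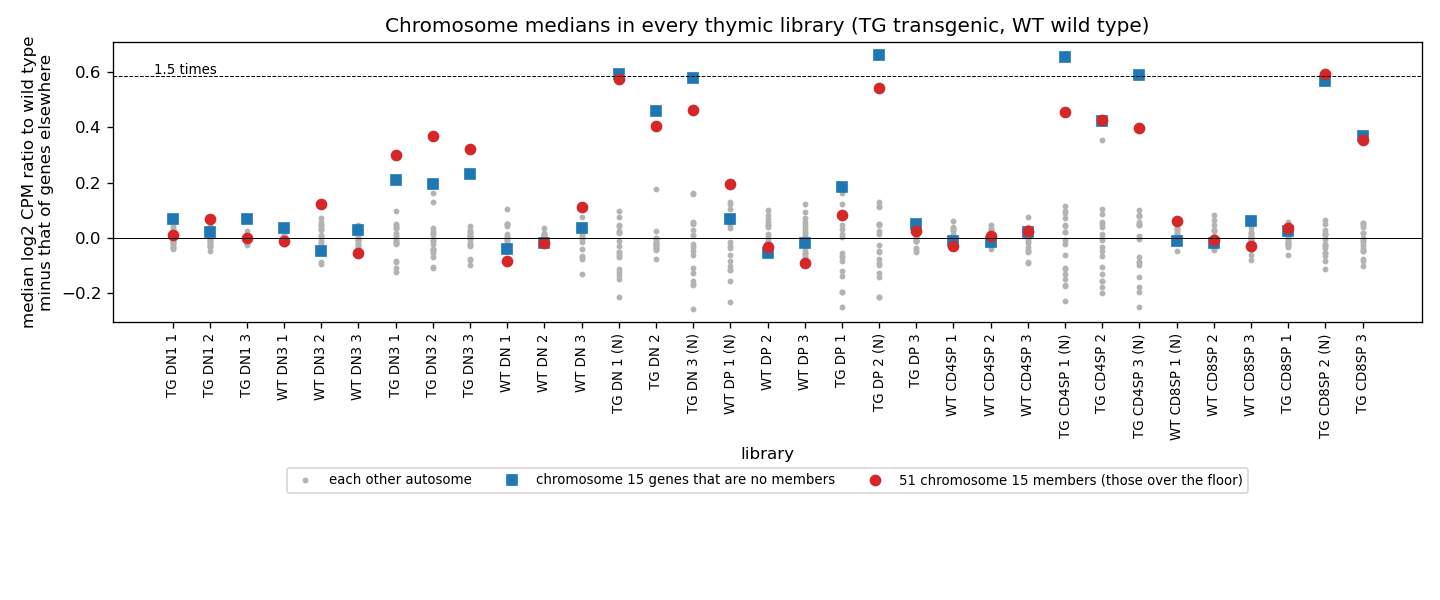
Median log2 CPM ratio to wild type, minus that of genes on other chromosomes (vertical axis), for each thymic library (horizontal axis); red points are the members, blue squares the other chromosome 15 genes, grey points each other autosome. Blue squares of wild-type libraries lie between -0.06 and 0.07, and 13 of the 15 transgenic libraries outside DN1 lie above them.

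The N mark moved with these values. The 6 transgenic N libraries had member medians of 0.40 to 0.60, and the 9 transgenic libraries without it had medians of 0.03 to 0.43. For the genes outside the list these groups did not overlap. Their medians were 0.57 to 0.66 with the mark and 0.02 to 0.46 without it. The 2 wild-type N libraries, of DP and CD8SP, had member medians of 0.20 and 0.06, and medians of 0.07 and -0.01 for the genes outside the list. Without the mark, transgenic DN replicate 2, CD4SP replicate 2 and CD8SP replicate 3 still had member medians of 0.40, 0.43 and 0.36. Where a stage has a wild-type library with the same mark, using it as the reference moved the member medians of that stage by -0.04 to 0.07. Of the 6 medians so recomputed, 1 changed sign.

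Counts of members past the threshold were read against the whole table, with edgeR's quasi-likelihood test at a Benjamini-Hochberg adjusted p under 0.05. Since the members were chosen on this contrast, nothing is read from these counts. Counts under another setting or without 1 library stand without the number of all genes called there, except for DESeq2 in DP. In DN3, 22 of 51 members rose and 3 fell, where 45.7% of all genes tested were called; without TMM scaling the split was 19 and 8. In total DN, 19 rose and none fell, against 12.4% of all genes. Leaving out 1 library changed that count most without WT_DN replicate 2, to 0, and it was 1 without WT_DN replicate 1, 2 without TG_DN replicate 3 and 11 without TG_DN replicate 1. In DP, no member and no gene was called (0% of 11649 tested by edgeR); at an unadjusted p under 0.05 there were 13 members and 2450 genes, and 1 member and 605 genes were past the threshold of DESeq2. Without TG_DP replicate 3, 5 members were called in DP.

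In CD4SP, 20 members rose and 5 fell, against 25.9% of genes called. That count fell to 1 without WT_CD4SP replicate 1 or replicate 2, to 9 without WT_CD4SP replicate 3 and to 16 without TG_CD4SP replicate 1. In CD8SP, 1 member rose (Rad21) and 1 fell (Ndrg1), against 4.45% of genes called; no member was called without TG_CD8SP replicate 1 or without any 1 of the wild-type libraries, 1 without TG_CD8SP replicate 2 and 4 without TG_CD8SP replicate 3. The median fitted log2 fold change of the members was 0.28 in DN3, 0.55 in DN, 0.27 in DP, 0.40 in CD4SP and 0.29 in CD8SP. Over all genes tested, the medians were -0.03, -0.01, 0.03, 0.05 and 0.0047.

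Members differed widely from each other. Over the 15 transgenic thymic libraries after DN1, 42 members had a median ratio above 0 and 9 a median below 0, and 17 had a median above 0.5. Trappc9, Pabpc1, Rac2, Nup50, Drosha, Smarcd1, Fyb, Taf2 and Eif4b were above 0 in all 15 libraries. At the other end, Ndrg1 was above 0 in 1 of 15 and Oxr1 in 3 of 15. The heat map of the members by library shows both ends, with colour running across most rows near the top and against it in the last one.

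**Figure D2:**
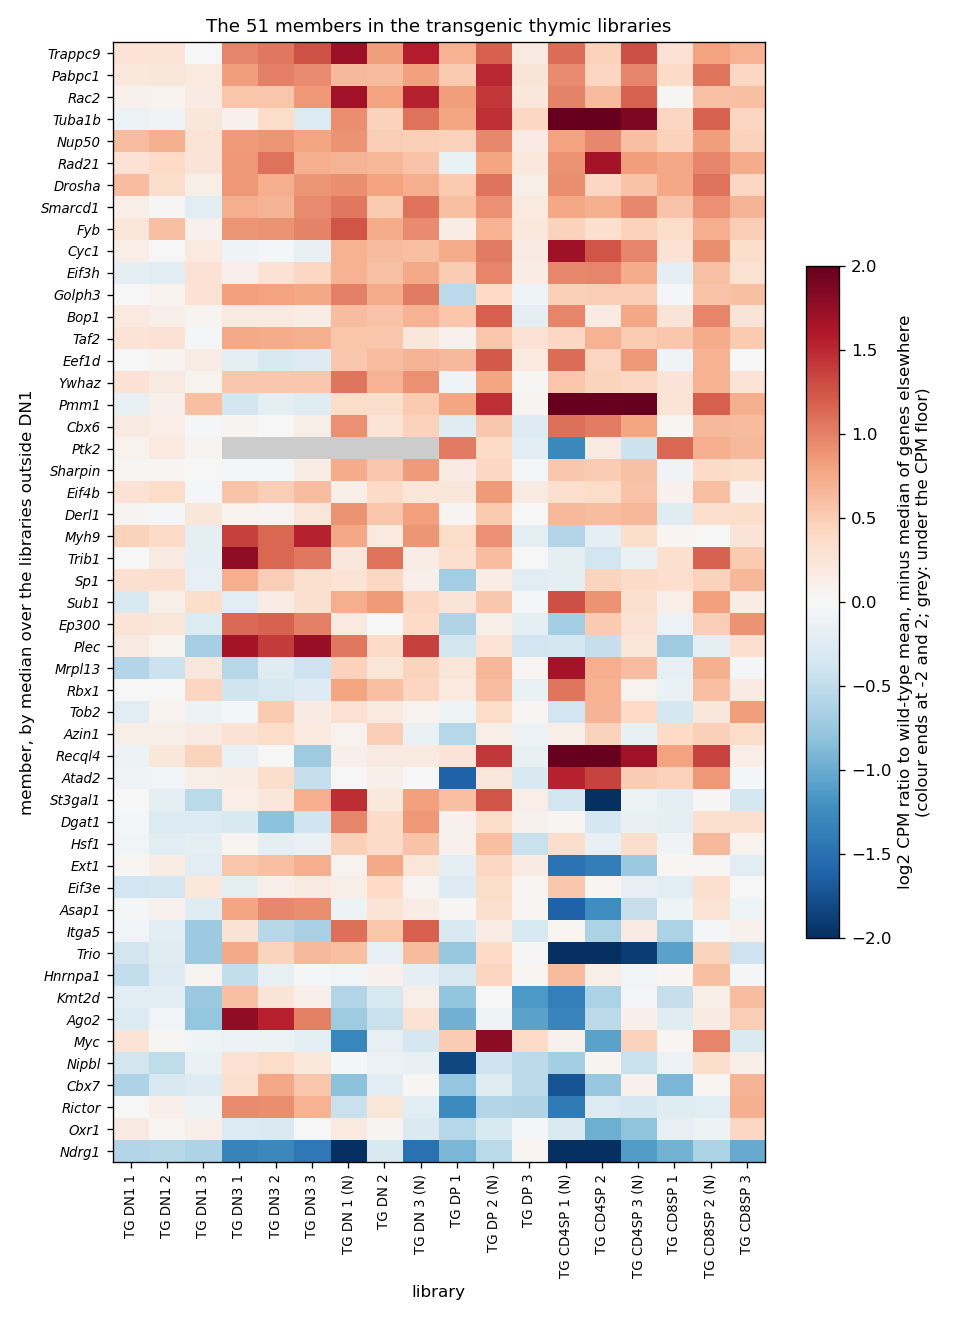
Log2 CPM ratio to the wild-type mean of the stage, minus the median of genes elsewhere (colour), for each member (rows, ordered by median over the libraries outside DN1) in each transgenic thymic library (columns). Trappc9 at the top is above 0 in all 15 libraries after DN1 and Ndrg1 at the bottom in 1.

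Among genes of translation, Pabpc1, which encodes the main cytoplasmic poly(A)-binding protein, had the highest median ratio. It was at 1706, 2118 and 1792 CPM in wild-type DN3 and 3024, 3452 and 3263 CPM in transgenic DN3 libraries. In CD4SP it was at 1837, 1926 and 2124 CPM in wild-type and 3693, 2488 and 3659 CPM in transgenic libraries. Neither pair of groups overlapped. Such separation was common: the CPM of the genotypes did not overlap for 59.2% of all genes tested in DN3, 38.9% in DN, 22.5% in DP, 50.1% in CD4SP and 26.1% in CD8SP, and for 31, 26, 10, 30 and 18 of the 51 members. Its ratio ran from 0.26 (TG_DP replicate 3) to 1.51 (TG_DP replicate 2) around a median of 0.82, where wild-type libraries ran from -0.2997 to 0.34. The initiation factor genes Eif3h and Eif4b had medians of 0.59 and 0.36, and Eif3e, a subunit of the same complex as Eif3h, had 0.06. Eef1d, an elongation factor subunit, and Bop1, needed for ribosome assembly, had medians of 0.54 and 0.56. Hnrnpa1, a splicing factor, had -0.04, above 0 in 7 of 15 libraries.

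Among genes of transcription and chromatin, Rad21, a cohesin subunit, stood high in CD8SP, at 502, 463 and 526 CPM in wild-type and 829.9, 913 and 784 CPM in transgenic libraries. All 3 transgenic libraries were above all wild-type ones, where 26.1% of all genes tested did not overlap. Smarcd1, a subunit of SWI/SNF chromatin remodellers, and Taf2, a subunit of the general factor TFIID, had medians of 0.72 and 0.55. Nipbl, the cohesin loader, went against Rad21, with a median of -0.11. Cbx7 and Cbx6, both Polycomb subunits, had medians of -0.21 and 0.46. Recql4, a DNA helicase of replication, and Atad2, a chromatin-bound ATPase of dividing cells, were high in CD4SP. Recql4 was at 7.64, 7.84 and 7.60 CPM in wild-type and 44.3, 34.3 and 24.3 CPM in transgenic CD4SP libraries, and Atad2 at 84.1, 81.2 and 74.4 and 229.6, 192 and 108 CPM.

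Among signalling and cytoskeletal genes, Rac2 was at 697, 731 and 874 CPM in wild-type DN and 2245, 1302 and 2042 CPM in transgenic DN libraries. Its DP values were 1167, 764 and 758 CPM in wild type and 1582, 2219 and 1077 CPM in transgenic libraries, and these overlapped. Fyb, an adaptor of T-cell receptor signalling to integrins, had a median of 0.695 and a range of 0.15 to 1.25, where wild-type libraries ran from -0.12 to 0.205. Plec and Myh9, which encode the linker protein plectin and the heavy chain of non-muscle myosin IIA, were among the highest members in DN3. Plec was at 145, 209 and 184 CPM in wild-type and 518, 431 and 542 CPM in transgenic DN3 libraries, and Myh9 at 395, 703 and 494 and 1237, 1071 and 1396 CPM. Trib1, a pseudokinase, was at 11.04, 14.7 and 12.1 CPM in wild-type DN3 and 39.9, 25.9 and 24.3 CPM in transgenic DN3. None of these 3 genes overlapped between the genotypes in DN3, as 59.2% of all genes tested did not.

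Several members changed sides between stages. Trio, a guanine nucleotide exchange factor, was at 144, 118 and 99.3 CPM in wild-type and 27.1, 10.6 and 30.4 CPM in transgenic CD4SP libraries. Its ratios in transgenic DN3 libraries were 0.75, 0.45 and 0.64. Its DN3 levels overlapped, at 8.16, 14.4 and 9.67 CPM in wild-type and 16.6, 13.5 and 15.4 CPM in transgenic libraries. Asap1, an Arf GTPase-activating protein, had ratios of 0.79, 0.96 and 0.93 in DN3 and -1.62, -1.24 and -0.46 in CD4SP. Ext1, an enzyme of heparan sulphate synthesis, had 0.56, 0.59 and 0.73 in DN3 and -1.47, -1.39 and -0.75 in CD4SP. Itga5, the integrin alpha-5 chain, had 0.29, -0.55 and -0.65 in DN3 and 1.097, 0.55 and 1.197 in total DN. Ago2, which carries the guide strand in RNA interference, had 1.77, 1.55 and 1.01 in DN3, but its wild-type DN3 libraries were themselves uneven at 28.9, 92.8 and 31.6 CPM, and wild-type libraries of all stages reached -1.05 and 1.59. Drosha, the nuclease that cuts primary microRNAs, was above 0 throughout, with a median of 0.77.

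Among the remaining members, Trappc9, part of a vesicle-tethering complex, had the highest median ratio, 0.98. It was at 48.01, 48.4 and 64.3 CPM in wild-type and 162, 92.9 and 146 CPM in transgenic DN libraries, without overlap. The same held for 38.9% of all genes tested in DN. Pmm1, a phosphomannomutase, was at 3.37, 4.12 and 6.05 CPM in wild-type CD4SP and 50.1, 55.5 and 38.9 CPM in transgenic CD4SP, the widest gap of any member. Tuba1b, an alpha-tubulin, was at 507, 540.3 and 701 and 3658, 2533 and 2013 CPM in the same groups. Cyc1, the cytochrome c1 subunit of respiratory complex III, was at 81.3, 79.1 and 75.1 CPM in wild-type and 130.2, 149.9 and 89.8 CPM in transgenic DP libraries. In DN3, Mrpl13 (a mitochondrial ribosomal protein) and Dgat1 (the last enzyme of triglyceride synthesis) were also low, above Ndrg1 and Itga5 alone by their medians, with ratios of -0.56, -0.25 and -0.41 and -0.3001, -0.83 and -0.405.

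Ndrg1, a gene known to respond to hypoxia and to be repressed by MYC, ran against the chromosome. In DN3 it was at 163, 126 and 129 CPM in wild-type and 49.4, 51.5 and 46.4 CPM in transgenic libraries. In CD4SP it was at 119.7, 125 and 175 and 22.1, 21.5 and 61.4 CPM, and in CD8SP at 74.8, 58.5 and 63.6 and 33.2, 39.3 and 30.3 CPM. All transgenic libraries were below all wild-type libraries in these 3 stages and in total DN, to be read beside the shares of all genes without overlap given above. In DP the groups overlapped, at 37.6, 21.3 and 22.4 and 13.99, 17.04 and 28.4 CPM. Rictor, the defining subunit of mTORC2, was low in DP, at 159, 313 and 326 CPM in wild-type and 108, 163 and 178 CPM in transgenic libraries. Kmt2d, a histone H3 lysine methyltransferase, was at 562, 914 and 841 and 441, 714 and 358 CPM there, and Ago2 at 116, 191 and 169.8 and 80.3, 138 and 77.1 CPM. Rictor and Kmt2d overlapped between the genotypes in DP, as did Ago2.

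Markers of other cells and stages also differed between the genotypes. In CD4SP, 15 proliferation genes summed to 1034 to 1235 CPM in wild-type and 2412 to 5433 CPM in transgenic libraries. The 5 DN3-stage markers summed to 173 to 197 CPM in wild-type and 641 to 951 CPM in transgenic CD4SP libraries, and 3 mast-cell genes (Kit, Cpa3 and Hdc) to 5.46 to 7.80 and 10.8 to 2080 CPM. The 3 mast-cell genes also stood at 79.6 to 140.5 CPM in wild-type DN3 and 733 to 1249 CPM in transgenic DN3. None of the 3 was at 0 in those groups. In total DN they summed to 76.0 to 90.1 CPM in wild-type and 450.4 to 1990 CPM in transgenic libraries, and 5 erythroid markers to 1410.4 to 19158 and 36.6 to 2272 CPM. The 7 DP-stage markers summed to 1662 to 2638 CPM in wild-type CD4SP libraries and to 1001, 15043 and 5750 CPM in the transgenic ones, so replicates 2 and 3 stood above wild type. TG_CD8SP replicate 3 had 11940 CPM of them, where wild-type CD8SP libraries had 3659 to 8186. The 5 markers of mature cells summed to 1628 to 2048 CPM in wild-type and 417 to 1188 CPM in transgenic CD4SP libraries. In DN3 those 5 markers summed to 616 to 742 CPM in wild-type and 1376 to 1643 CPM in transgenic libraries. The 5 T-cell markers went the other way in DN3, with 4780 to 5574 and 2711 to 2897 CPM. So did the 6 myeloid markers, with 14.9 to 20.5 and 5.70 to 7.11 CPM. In these bulk samples fewer cells of a type and less RNA per cell cannot be told apart, and the part of such cells in the members' values was not tested.

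Myc (gene identifier 17869) went against the median of its chromosome in transgenic DN3 and total DN and with it in DP. Over the 15 transgenic thymic libraries after DN1 it was 1 of 9 members with a median ratio below 0. In DN3 it was at 449.6, 436 and 441 CPM in wild-type libraries and lower, at 369, 377 and 349 CPM, in transgenic ones. In total DN it was at 356, 372 and 366 CPM in wild type and 135, 314 and 263 CPM in transgenic libraries. In DP it was at 22.996, 24.998 and 24.7 CPM in wild type and higher, at 34.4, 78.5 and 32.4 CPM, in transgenic libraries. The last of these is TG_DP replicate 3, whose Lmo2 level of 0.40 CPM was inside the wild-type DP range. The genotypes did not overlap in any of these 3 stages, as 59.2%, 38.9% and 22.5% of all genes tested did not in DN3, DN and DP.

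In CD4SP, Myc was at 111, 112 and 114 CPM in wild-type libraries and 117, 50.2 and 148 CPM in transgenic ones, which lay on both sides. In CD8SP it was at 192, 202 and 126 and 173, 319 and 133 CPM, also overlapping. DN1 had 117.4 CPM in the wild-type library and 137, 116 and 111 CPM in the transgenic libraries. Splenic CD4+ libraries had 97.7, 83.8 and 84.97 CPM and splenic CD8+ libraries 111, 233 and 195 CPM. Relative to genes elsewhere, its ratios were -0.12, -0.1003 and -0.198 in DN3, -1.31, -0.17 and -0.34 in DN, 0.51, 1.79 and 0.38 in DP, 0.09, -1.07 and 0.47 in CD4SP and 0.04, 0.98 and -0.29 in CD8SP. TG_DP replicate 2 and TG_CD8SP replicate 2, both with high chromosome 15 medians, had the highest Myc of their groups. The order was the reverse in total DN. There replicate 1, with the highest chromosome 15 medians, had the lowest Myc, and replicate 2, with the lowest medians, had the highest. In CD4SP, replicate 3 had the highest Myc and the lowest member median.

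Per length, the deposited FPKM of Myc had a mean of 195 ± 2.84 (SD, n = 3) in wild-type DN3, 162 ± 3.53 in DN, 76.8 ± 18.0 in CD8SP, 49.9 ± 0.65 in CD4SP and 10.7 ± 0.48 in DP. In the single DN1 library it was 52.0 FPKM. The CD4SP and DN1 levels were close, and the CD8SP range of 56.2 to 89.2 FPKM lay above both. In transgenic cells the means were 162 ± 6.32 FPKM in DN3, 105 ± 40.9 in DN, 92.8 ± 43.7 in CD8SP, 79.9 ± 27.9 in splenic CD8+, 53.8 ± 5.95 in DN1, 46.7 ± 22.2 in CD4SP, 39.5 ± 3.41 in splenic CD4+ and 21.5 ± 11.7 in DP. The ranges of DN, CD8SP and splenic CD8+ libraries overlapped, and that of CD4SP, 22.2 to 65.7 FPKM, held all DN1 and splenic CD4+ values.

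**Figure D3:**
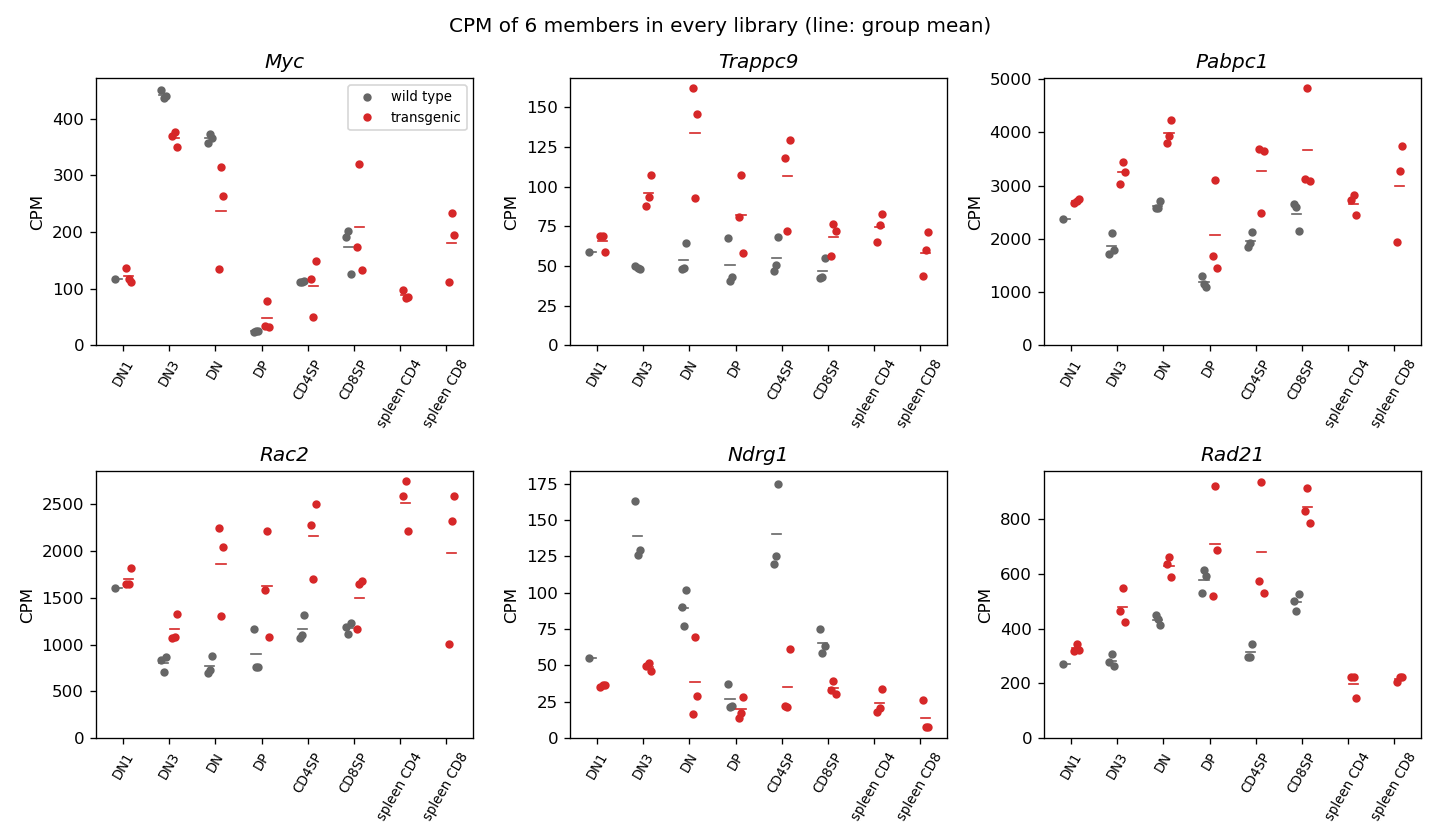
CPM (vertical axis, from 0) of 6 members in every library by stage (horizontal axis), wild type in grey and transgenic in red, with a line at each group mean. Myc was lower in transgenic than in wild-type DN3 and DN and higher in DP, Trappc9, Pabpc1 and Rad21 were higher in most transgenic groups, and Ndrg1 was lower in transgenic DN3, DN, CD4SP and CD8SP.

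Lists of MYC partners (14 genes), MYC targets (25 genes of ribosome assembly, metabolism and transport) and proliferation genes (15) were drawn up beside the members. Between genotypes, 1 target rose and 10 fell in DN3, where 45.7% of all genes tested were called. The targets had a median log2 fold change of -0.24 there, where all genes had -0.03. Npm1, a ribosome assembly chaperone, changed by -0.77 ± 0.13 (SE) and Slc3a2, the heavy chain of amino acid transporters, by 0.85 ± 0.12. In DP none of the 25 targets was called, nor was any other gene, and the targets had a median of 0.61 where all genes had 0.03. In total DN 1 target was called, in CD4SP 3, and in CD8SP none, and all 4 of those calls were rises. Of all genes tested, 12.4% were called in total DN, 25.9% in CD4SP and 4.45% in CD8SP. The proliferation genes all rose in CD4SP (15 of 15, median 2.44), and Aurkb changed by 3.23 ± 0.43 there. In DN3 none of them rose and 1 fell, in CD8SP 1 rose, and in DN and DP none was called.

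Of the MYC partners, 3 of 13 tested rose and 1 fell in DN3, where 45.7% of all genes were called. In CD4SP 2 of 14 rose and 1 fell, against 25.9% of all genes. Mycn, the MYC relative of early precursors, had a mean of 0.684 CPM in wild-type and 6.88 CPM in transgenic CD4SP libraries. Mxd3, a MAX-binding antagonist of MYC found in dividing cells, had means of 6.58 and 49.8 CPM in the same groups. In DN 2 of 14 partners fell, Mga and Huwe1, where 12.4% of all genes were called, and no partner was called in DP or CD8SP.

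The promoters of the members were searched for CACGTG, the palindromic E-box that MYC and MAX bind, which reads the same on both strands. RefSeq promoter sequences (assembly GRCm38.p6), from 250 bases before to 50 after the gene start, were at hand for 21 of the 51 members. CACGTG occurred in 2 of the 21 (9.52%), in 8 of 26 promoters of the MYC target list (30.8%) and in 7.15% of all 32851 promoters. The 60 bases around it in the 2 members are shown 5′ to 3′ on the gene's strand, with the E-box in capitals, because they are the members' only matches among those 21.
Sub1 (chr15:11996040-11996099, minus strand): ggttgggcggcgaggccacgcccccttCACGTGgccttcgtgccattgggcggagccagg
Cbx6 (chr15:79834334-79834393, minus strand): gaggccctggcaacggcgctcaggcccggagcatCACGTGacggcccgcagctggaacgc
Both stretches lie upstream of the gene start; the motif begins 65 bases before it in Sub1, a single-stranded DNA-binding coactivator, and 26 bases before it in Cbx6. In the stage comparison where Myc fell most, wild-type DP against DN3, Sub1 and Cbx6 had log2 fold changes of -0.29 ± 0.17 and 0.43 ± 0.18 (SE).

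Along the chromosome the shift was broad. The median over 31 neighbouring expressed genes, moved gene by gene, stayed above 0 in all windows of 8 transgenic libraries: all 3 of DN, TG_DP replicate 2, TG_CD4SP replicates 1 and 3, and TG_CD8SP replicates 2 and 3. In total DN the windows of replicate 2 ran from 0.23 to 0.66, and those of replicates 1 and 3 from 0.15 to 1.02 and 0.17 to 0.97. In CD4SP they ran from -0.02 to 1.42 over the 3 replicates. In DN3 they ran from -0.25 to 0.54, with the lowest windows in the first part of the gene order, before its middle. Windows of wild-type libraries ran from -0.44 to 0.37.

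Split into 3 stretches of 17 members each, genes outside the list had medians in TG_DP replicate 2 of 0.46 in the first stretch, 0.59 in the middle and 0.73 in the last. The same stretches gave 0.51, 0.50 and 0.64 in TG_CD8SP replicate 2. In TG_DP replicate 1 they gave -0.21, 0.14 and 0.26, and the wild-type DP replicate 1 went the same way with -0.24, 0.03 and 0.13. The plot of running medians in gene order shows the 2 kinds of library in DP and CD8SP.

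**Figure D4:**
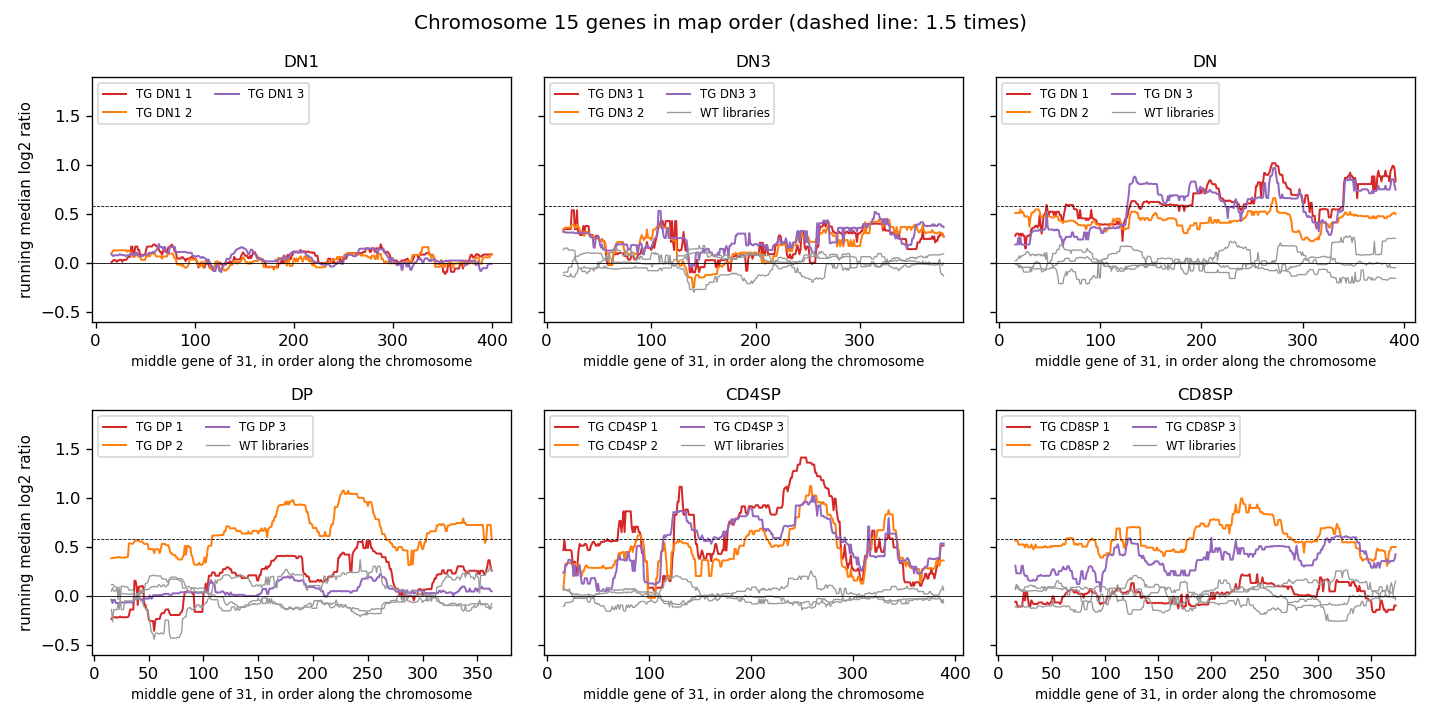
Running median of the log2 ratio over 31 neighbouring chromosome 15 genes (vertical axis) against gene order (horizontal axis), by stage; transgenic libraries are coloured and wild-type ones grey, and the dashed line marks 1.5 times. TG_DP replicate 2 and TG_CD8SP replicate 2 have no window lower than 0.31, while TG_DP replicate 3 and TG_CD8SP replicate 1 have none higher than 0.22.

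Transgenic libraries of 1 stage were also set directly against each other, without any wild-type library. TG_DP replicate 2 against replicate 1 gave a member median of 0.53 and a median of 0.49 for the genes outside the list. TG_DP replicate 3 against replicate 2 gave -0.60 and -0.61, and TG_CD8SP replicate 2 against replicate 1 gave 0.55 and 0.56. In each of these pairs chromosome 15 was at the end of the 19 autosomes. Pairs of DN3 replicates gave member medians of -0.05 to 0.03. Between the means of wild-type stages, 10 pairs gave -0.09 to 0.29 for the members and -0.09 to 0.06 for the genes outside the list. The 4 pairs that hold DN3 had the highest member medians, 0.22 to 0.29. In DN3, then, a member median of that size also separated wild-type stages, which the genes outside the list did not show.

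Normal development moved the members in both directions, and these comparisons are other contrasts than the one the members were chosen on. They still share its libraries: the wild-type libraries were the reference of that choice, and members changed by a median of 0.31 from wild-type DN3 to DP where the chromosome 15 genes outside the list changed by -0.09. Calls of members by edgeR are therefore given as a description, without p-values, here and in the transgenic and splenic comparisons that follow. From wild-type DN3 to DP, 20 of 51 members rose and 13 fell, against 60% of all genes called; without TMM scaling 16 rose and 18 fell. The largest fall was Myc, from 449.6, 436 and 441 CPM to 22.996, 24.998 and 24.7 CPM, a log2 fold change of -4.02 ± 0.15 (SE). Ndrg1 went from 163, 126 and 129 to 37.6, 21.3 and 22.4 CPM, a change of -2.16 ± 0.28 (SE). Eef1d, Recql4 and St3gal1 (a sialyltransferase of cell surface glycans) fell, with changes of -1.38 ± 0.19, -1.18 ± 0.17 and -1.103 ± 0.16 (SE). None of these 5 genes overlapped between the stages, as 67.6% of all genes tested did not.

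Ptk2 and Cbx7 had the largest rises. Cbx7 went from 8.72, 11.96 and 7.84 CPM in DN3 to 19.8, 36.7 and 45.5 CPM in DP, 1.99 ± 0.27 (SE). Ptk2, which encodes focal adhesion kinase, went from 2.08, 1.67 and 1.23 to 7.303, 7.89 and 8.26 CPM, 2.401 ± 0.24 (SE). Ago2, Ep300 (an acetyltransferase coactivator) and Myh9 rose by 1.796 ± 0.42, 1.66 ± 0.22 and 1.503 ± 0.25 (SE), all called by edgeR. The median change over all genes was -0.02. Of the 25 MYC targets 23 fell and 1 rose (median -1.94); Srm, the spermidine synthase gene, changed by -3.79 ± 0.21 (SE; edgeR adjusted p = 1.4e-06). Mycn changed by -1.83 ± 0.17, and the antagonist genes Mxi1, Mxd1 and Mxd4 rose by 1.46 ± 0.19, 1.37 ± 0.18 and 2.11 ± 0.31.

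From DP to CD4SP in wild-type cells, 13 members rose and 9 fell, against 43.9% of all genes. Myc rose from 22.996, 24.998 and 24.7 to 111, 112 and 114 CPM, 2.18 ± 0.10 (SE). St3gal1 rose from 64.2, 56.6 and 55.9 to 412, 439.6 and 429 CPM, 2.82 ± 0.15 (SE). Trio, Ndrg1 and Ext1 rose by 2.36 ± 0.16, 2.32 ± 0.32 and 1.82 ± 0.18 (SE), all called by edgeR. Pmm1 fell from 26.1, 24.2 and 23.9 to 3.37, 4.12 and 6.05 CPM, -2.49 ± 0.25 (SE), and Tuba1b, Recql4, Atad2 and Rad21 fell with changes of -1.06 ± 0.19, -1.04 ± 0.17, -1.03 ± 0.30 and -0.91 ± 0.13. Atad2 overlapped between the groups, where 55.4% of all genes tested did not, and its call was lost when any 1 library other than WT_DP replicate 1 was left out. The count of members called was 12 without WT_CD4SP replicate 2 and 13 without WT_CD4SP replicate 1.

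Recql4, Atad2, Pmm1 and Tuba1b, which fell from DP to CD4SP in wild-type cells, are the 4 members with the highest ratios in transgenic CD4SP libraries given above. St3gal1, Trio, Ext1 and Ndrg1, which rose on that step, had ratios of -0.38, -2.4002 and -0.11, -2.103, -3.36 and -1.89, -1.47, -1.39 and -0.75 and -2.61, -2.59 and -1.11 there. Both comparisons use the wild-type CD4SP libraries. All 15 proliferation genes fell from DP to CD4SP (median -2.49), and 18 of 25 MYC targets rose and 1 (Wdr12) fell.

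From DP to CD8SP in wild-type cells, 15 members rose and 8 fell, against 37.7% of all genes. Myc rose from 22.996, 24.998 and 24.7 to 192, 202 and 126 CPM, 2.81 ± 0.21 (SE). St3gal1, Ndrg1, Eef1d and Pabpc1 rose by 1.37 ± 0.18, 1.23 ± 0.27, 1.13 ± 0.17 and 1.02 ± 0.20 (SE), all called by edgeR and without overlap. Of all genes tested, 53.6% did not overlap on this step. Ndrg1 lost its call without WT_CD8SP replicate 1. Ep300 fell from 437, 402 and 414 to 197, 224 and 247 CPM, -0.94 ± 0.16 (SE). Nipbl, Rictor, Tob2 (an antiproliferative adaptor of mRNA decay) and Itga5 fell with changes of -0.99 ± 0.24, -0.88 ± 0.30, -0.79 ± 0.24 and -0.77 ± 0.21. Each of these 4 lost its call when 1 of several libraries was left out, WT_CD8SP replicate 1 in every case. The count of members called was 9 without WT_CD8SP replicate 1, 12 without WT_DP replicate 3 and 13 without WT_CD8SP replicate 2 or WT_DP replicate 2. MYC targets rose in 22 of 25 cases and fell in 1, with a median of 1.505 where all genes had -0.03; Cad, the enzyme that opens pyrimidine synthesis, changed by 2.18 ± 0.16 (SE; edgeR adjusted p = 2.2e-04).

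Within the transgenic genotype, 21 members rose and 12 fell from DN1 to DN3, against 61.2% of all genes. Myc rose from 137, 116 and 111 to 369, 377 and 349 CPM, 1.53 ± 0.13 (SE). Recql4 rose from 6.22, 7.97 and 9.68 to 32.5, 36.3 and 21.7 CPM, 1.88 ± 0.24 (SE), and Pmm1, Atad2 and Drosha rose by 1.66 ± 0.21, 1.15 ± 0.20 and 1.12 ± 0.14 (SE). Cbx7 fell from 56.7, 70.7 and 76.2 to 10.8, 15.1 and 12.8 CPM, -2.45 ± 0.17 (SE). Ptk2, Trio, Asap1 and Myh9 fell, with changes of -2.61 ± 0.22, -1.88 ± 0.16, -1.12 ± 0.11 and -1.06 ± 0.19. None of these genes overlapped between DN1 and DN3, nor did 69.7% of all genes tested. Of the lists, 22 of 25 MYC targets and 15 of 15 proliferation genes rose and none fell.

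Other cell types differed between those 2 groups. The 6 B-cell markers summed to 699 to 1053 CPM in transgenic DN1 and 8.58 to 13.8 CPM in transgenic DN3 libraries, and the 6 myeloid markers to 911 to 1256 and 5.70 to 7.11 CPM. None of these markers was at 0, and their part in the members' changes was not tested. The median of the genes outside the list was 0.08 in DN3 over DN1, with chromosome 15 second of the 19 autosomes.

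Splenic T cells of transgenic mice lay below the transgenic single-positive thymocytes on chromosome 15. The chromosome and its members were picked out on those single-positive libraries among others. The fall of its genes against them is therefore a description, and nothing is read from it. For CD4+ cells the member median was -0.32 and that of the genes outside the list -0.39, and for CD8+ cells -0.28 and -0.32. In both comparisons chromosome 15 had the lowest median of the 19 autosomes. The 3 splenic CD4+ libraries gave member medians of -0.33, -0.29 and -0.41 against the CD4SP mean. Against TG_CD4SP replicates 1, 2 and 3 alone, splenic CD4+ cells gave -0.29, -0.07 and -0.41 for the members and -0.39, -0.31 and -0.42 for the genes outside the list, with 28 of 51 members below 0 against replicate 2. The splenic CD8+ libraries gave -0.62, -0.31 and -0.20 against the CD8SP mean. Against TG_CD8SP replicate 1 alone, whose chromosome 15 median was in the wild-type range, splenic CD8+ cells gave -0.07 for the members and 0.10 for the genes outside the list. Against replicates 2 and 3 alone they gave -0.65 and -0.29 for the members. These comparisons share the transgenic single-positive libraries with the genotype comparisons. Against the wild-type CD4SP mean, splenic CD4+ libraries had medians of 0.16, 0.23 and 0.24 for the genes outside the list. Their member medians were -0.06, -0.10 and -0.25. Against the wild-type CD8SP mean, splenic CD8+ libraries had 0.0012, 0.02 and 0.16, and -0.19, 0.12 and 0.23 for the members. Tissue and genotype both differ in these comparisons with wild type.

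In splenic CD4+ against CD4SP cells, 1 member rose and 16 fell, where 24.5% of all genes tested were called (12.5% rose and 12.01% fell); among the genes outside the list, 44 of 446 rose and 113 fell. In splenic CD8+ against CD8SP cells, 4 members rose and 18 fell, where 37.3% of all genes were called (17.2% rose and 20.1% fell), and outside the list 57 of 423 rose and 116 fell. Of the members, 14 fell in both, which is 14 of 16 and 14 of 18. The falls shared by both comparisons were not counted over all genes, so nothing is read from that overlap. The CD4+ count was 3 without splenic CD4+ replicate 1, 4 without replicate 2 and 10 without replicate 3. The CD8+ count was 14 without splenic CD8+ replicate 2, and 28 without replicate 1, the library with few T-cell transcripts.

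Recql4 had the largest fall in both, from 51.8, 72.2 and 31.2 to 4.595, 3.68 and 3.44 CPM in CD8+ cells, -3.76 ± 0.35 (SE), and from 44.3, 34.3 and 24.3 to 5.17, 5.85 and 2.53 CPM in CD4+ cells, -2.84 ± 0.38 (SE). Tuba1b fell from 2965, 4765 and 2873 to 433, 723 and 706 CPM in CD8+ cells, -2.51 ± 0.39 (SE). In CD8+ cells Atad2, Cbx6 and Pmm1 also fell, with log2 fold changes of -2.43 ± 0.26, -2.33 ± 0.22 and -2.22 ± 0.35 (SE). In CD4+ cells Itga5, Atad2, Rad21 and Cbx6 fell, with changes of -2.37 ± 0.49, -2.22 ± 0.47, -1.68 ± 0.29 and -1.47 ± 0.20. Of these, Itga5, Atad2 and Rad21 lost their calls without splenic CD4+ replicate 1 or 2, Itga5 and Atad2 also without TG_CD4SP replicate 1. Cbx7 rose in both, from 11.03, 20.8 and 33.1 to 85.4, 93.4 and 97.8 CPM in CD8+ cells, 2.07 ± 0.41 (SE), and from 15.2, 29.1 and 52.8 to 105, 106 and 97.7 CPM in CD4+ cells, 1.78 ± 0.43 (SE). The CD4+ call of Cbx7 was lost without any 1 of the splenic libraries or without TG_CD4SP replicate 2. Trio, Asap1 and St3gal1 rose in CD8+ cells by 1.71 ± 0.41, 0.64 ± 0.19 and 0.59 ± 0.17 (SE); Asap1 and St3gal1 lost their calls under several settings, among them without TG_CD8SP replicate 1 or 3, and Trio without TG_CD8SP replicate 3.

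Transcripts of other cells and of dividing cells moved with the splenic comparisons. B-cell markers summed to 527 to 4337 CPM in splenic and 8.92 to 63.1 CPM in transgenic single-positive libraries, and myeloid markers to 337 to 4268 and 19.9 to 292 CPM. Erythroid markers reached 40880 CPM in a splenic CD4+ library. All 15 proliferation genes fell in both comparisons, with medians of -2.77 in CD4+ and -3.99 in CD8+ cells. The part of these differences in the members' changes was not tested. Without splenic CD8+ replicate 1 the CD8+ member median was -0.31.

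The anti-LMO2 peak lists are a readout apart from the RNA, with 1 library each and no replicate. Of the 2239 peaks listed for transgenic DN3 cells, 305 were on chromosome 15, or 13.6% (95% Clopper-Pearson interval 12.2 to 15.1, counting error only). This was the highest share of any chromosome, and the next, chromosome 2, had 7.10%. In wild-type DN3 cells 24 of 724 peaks were on chromosome 15, or 3.31% (2.14 to 4.89). Transgenic DP cells had 72 of 1225 (5.88%, 4.63 to 7.34), splenic CD4+ cells 36 of 816 (4.41%, 3.11 to 6.06) and splenic CD8+ cells 724 of 20265 (3.57%, 3.32 to 3.84). At this threshold of the authors the interval of transgenic DN3 does not overlap those of the other 4 lists.

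Peaks of transgenic DN3 cells covered the whole chromosome, with 12 to 45 in each of 11 bins of 10 Mb, the last of them partly filled. Their deposited fold enrichment had a median of 3.53 on chromosome 15 and 3.53 elsewhere, and their median width was 50 bases in both. These medians were equal in every other list too, so they cannot tell whether peaks of chromosome 15 were as strong as others. Among the 385 peaks with a deposited −log10 p of at least 5, 43 were on chromosome 15, or 11.2% (8.20 to 14.7), and in wild-type DN3 cells 3 of 76, or 3.95% (0.82 to 11.1). In DP cells 5 of 113 were, or 4.42% (1.45 to 10.02). At this stricter minimum the interval of transgenic DN3 overlapped those of wild-type DN3 and of DP. In splenic CD4+ cells another chromosome stood out, chromosome 6 with 15.7% of peaks. Peaks were not assigned to members, since no annotation of the build in the peak names (mm9) was at hand.

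**Figure D5:**
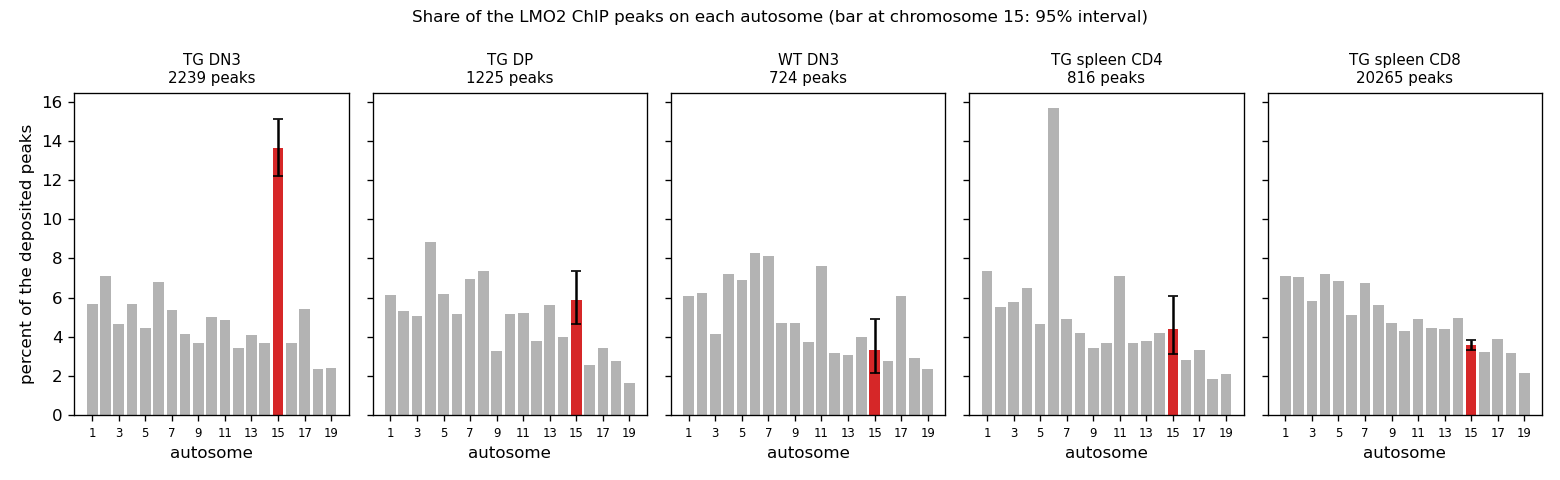
Percent of the deposited anti-LMO2 peaks on each autosome (bars, from 0) in the 5 lists, with chromosome 15 in red and its 95% interval as a line. Chromosome 15 holds 13.6% of the transgenic DN3 peaks and 3.31% of the wild-type DN3 peaks.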

How the data were processed

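RNA was read as whole-number read counts per gene, deposited by the authors for 40 libraries, beside the authors' FPKM values (fragments scaled by gene length and depth), which were used here for levels per length and as an alternative. Per the submitters' processing notes, the tools were MACS2, HISAT, Bowtie2 and DESeq2 and the builds mm9 and mm10. The sources used here do not say which of them made which file. The deposited peak lists give a fold enrichment (a ratio to background) and a −log10 p per peak, both the authors' own values, and peak names of transgenic DN3 cells name mm9. Depth was 17211426 to 28842773 counts per library. Another 4 columns of per-sample values, 2 of them counts, were not used.

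The members and the gene lists were chosen with earlier results of these data known. Groups come from the labels. Chromosomes came from RefSeq (GRCm38.p6) by gene identifier, for 19379 of 19521 genes; all 51 members lie on chromosome 15. CPM is the count over the library total, and ratios used a pseudocount of 0.5 CPM and a floor of 5 CPM. Tests used edgeR 4.0.16 in R 4.3.3 (filterByExpr with a minimum count of 10 and total of 15, TMM, robust quasi-likelihood, two-sided, Benjamini-Hochberg over all genes tested) on the 6 libraries of each comparison. Fitted log2 fold changes have a prior count of 0.125, and their SE was derived from the test's p. DESeq2 1.42.0 was an alternative. Medians and tests were checked on simulated counts.

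Genes planned to be named with all values were Myc, then per stage the 4 members with the highest and the 4 with the lowest median ratio in transgenic libraries. Only part of these are given with their values at each stage, and Pabpc1 was given outside that plan. In the other comparisons they were the 5 largest rises and falls past the threshold with a mean of at least 5 CPM, plus up to 4 genes per list. Ptk2, under that mean from wild-type DN3 to DP, was given there outside the plan. Other members are named by their medians. Alternatives were another scaling, filter, pseudocount, floor and unit, DESeq2, a replicate block and leaving out each library. A wild-type reference of matching column mark was added after seeing the data.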

Additional observations from a re-analysis of the deposited data

Results flagged for a closer look

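On the ratio scale, where each wild-type library is set against the others of its stage, 3 members stood above every wild-type library in all 3 transgenic libraries of 1 stage and below every wild-type library in all 3 of another. Of all genes over 5 CPM in a stage, 9.27% did so. On the CPM themselves 11 members did, against 15.7% of genes: beside these 3 they were Dgat1, Eef1d, Hsf1, Mrpl13, Pmm1, Rbx1, Recql4 and St3gal1. The difference between the stages was not tested. Myc had a mean ratio of 0.89 ± 0.78 (SD, n = 3) in DP and -0.14 ± 0.05 in DN3, a gap of 1.03, and -0.61 ± 0.62 in total DN, a gap of 1.5002 to DP. Ext1 had 0.63 ± 0.09 in DN3 and -1.20 ± 0.40 in CD4SP, a gap of 1.83. Asap1 had 0.89 ± 0.09 in DN3 and -1.11 ± 0.59 in CD4SP, a gap of 2.0004. TG_DP replicate 2 gave the highest of the 3 Myc ratios in DP, and another of the 3 came from TG_DP replicate 3, with Lmo2 inside the wild-type range.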

How the results depend on the processing

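The member medians of 18 transgenic libraries moved by less than the spread of their group under TMM scaling, a floor of 1 CPM and a pseudocount of 5. A floor of 20 CPM gave 0.23, 0.32 and 0.25 for TG_DN3 libraries 1, 2 and 3 and 0.52 for TG_CD4SP library 1, which was 0.39 with FPKM in place of CPM. Leaving out 1 wild-type reference library gave 0.20 to 0.43, 0.32 to 0.55 and 0.27 to 0.44 for the TG_DN3 libraries, and 0.41 to 0.47 and 0.36 to 0.44 for TG_CD4SP libraries 1 and 2. A peak minimum of 5 in −log10 p gave chromosome 15 shares of 11.2% in transgenic DN3, 4.42% in DP, 1.06% in CD4+ spleen cells and 3.90% in CD8+ spleen cells. Members called under DESeq2 were 1 in DP and 11 in CD8SP. Leaving out 1 library gave 0 to 25 members in DN, 0 to 5 in DP, 1 to 21 in CD4SP, 0 to 4 in CD8SP, 12 to 31 for wild-type CD4SP against DP, 9 to 28 for wild-type CD8SP against DP, 3 to 18 for splenic CD4+ and 14 to 28 for splenic CD8+ cells. The cause was not tested. Except for DESeq2 in DP, the number of all genes called is not given for these settings or for the replicate block below. Nothing is read about the members from these counts. Of 550 values of named members under alternatives, 504 kept their call, 46 lost it and none changed direction.

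Equal replicate numbers were not shown to pair the samples, since in none of the 11 comparisons did all 3 pairs correlate above 0.1. Every library correlated best with its own number in DN (0.09 to 0.23), wild-type CD8SP against DP (0.08 to 0.49) and transgenic DN3 against DN1 (0.09 to 0.35), a hint from the data only. With a replicate block, 24 members were called in DN3, 19 in DN, 0 in DP, 9 in CD4SP and 3 in CD8SP, and 13 in wild-type CD4SP against DP, with 31, 26, 34, 12 and 18 in the other 5 comparisons in the order given above.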

Other observations

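By role, the members did not move alike across stages. The 8 signalling members over the floor in DN3 had medians of 0.77, 0.73 and 0.78 in the transgenic libraries. The 9 over the floor in CD4SP (Ptk2 added) had -0.18, 0.18 and -0.14 in the transgenic CD4SP libraries. The 8 members of translation had -0.04, 0.15 and 0.17 in DN3, 0.50, 0.48 and 0.56 in total DN, and 0.95, 0.40 and 0.68 in CD4SP. The 5 members of trafficking, protein turnover and the nuclear pore had medians of 0.78 to 0.82 in DN3, 0.59 to 0.90 in DN and 0.60 to 0.80 in CD4SP. The 15 members of transcription and chromatin had 0.21 to 0.36 in DN3 and 0.36 to 0.69 in CD4SP.

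All chromosome 15 genes were also split by their height of expression. In TG_DP replicate 2, those with 5 to 20 CPM were 0.50 above genes elsewhere of the same level, those with 20 to 80 CPM 0.70 and those above 80 CPM 0.65. TG_CD8SP replicate 2 gave 0.53, 0.58 and 0.59 for the same ranges. In TG_CD4SP replicates 1 and 2 the lowest range was lower than the others, with 0.30, 0.76 and 0.64 in replicate 1 and 0.13, 0.46 and 0.40 in replicate 2.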
